A study of Mus musculus with 10 samples.

Results

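Potassium channel genes encode the proteins that let potassium ions cross the cell membrane, together with the subunits that modify them. They were taken here as the protein-coding genes of chromosomes 1 to 19 in GENCODE M21, on mm10, whose symbol begins with Kcn and a further letter. This rule found 91 of the 20807 coding genes of these chromosomes, in 21 subfamilies by symbol. The rule used names and positions only, but it was set with earlier results of these data known. The 91 genes were placed in 6 groups by role, which are 29 voltage-gated pore subunits, 10 modulatory voltage-gated subunits, 8 ligand-gated pore subunits, 15 inward rectifiers, 13 genes of 2-pore-domain channels and 16 auxiliary subunits and regulators. A further 5 antisense genes with a Kcn symbol and 2 coding Kcn genes of chromosome X were not members.

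The study developed a way to call long-range interactions from PLAC-seq data, which join chromatin immunoprecipitation with proximity ligation. It took ChIP-seq peaks of the targeted protein as anchors, and used ATAC-seq peaks to describe the regions that the anchors contact. All of its 10 samples, in 5 groups of 2 replicates, came from F123 cells, an untreated line of mouse embryonic stem cells from an F1 cross of Mus musculus castaneus with S129/SvJae. The cells were grown with LIF on irradiated CF1 mouse embryonic fibroblasts, which serve as feeders, and were passaged once without feeders on gelatin before harvest. Described here are the H3K4me3 ChIP-seq list, from 2000000 fixed cells per sample, and the ATAC-seq list, from 100000 fresh cells per sample, whereas the PLAC-seq and input samples were not analysed here.

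Each list stands for 2 replicates, so that no value below has a spread between replicates and no test between samples could be made. The read depth behind both lists is unknown. The H3K4me3 list held 32496 peaks on the autosomes and the ATAC-seq list 172958. A gene was called marked when an H3K4me3 peak shared at least 1 bp with the window of 2 kb on either side of its start, and accessible when an ATAC-seq peak did so. Width is the summed width of the H3K4me3 peaks in that window, and strength is the fold enrichment of the strongest of them, a ratio over the local background as the authors' peak caller gave it. Shares carry 95% Wilson intervals and medians carry 95% intervals from order statistics, which treat the genes as draws and say nothing of replicates. Both assays average over all cells of a sample, so that a peak in few cells and a weak peak in all cells cannot be told apart.

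H3K4me3, the trimethylated form of lysine 4 of histone H3, lies at the starts of active genes, and in embryonic stem cells also at many starts of developmental genes that are silent and carry a Polycomb mark as well. It is strongest at CpG islands, where proteins with a CXXC domain bring the methyltransferase complexes to unmethylated CpG. ATAC-seq cuts DNA with a transposase where nucleosomes leave it open. Many potassium channels are known for their work in neurons, muscle, kidney and the inner ear rather than in stem cells. A peak at a gene start is no measure of its transcript or protein, and neither was measured in the data used here.

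The labelled cell type was checked against its markers. Of 10 genes that mark embryonic stem cells, 9 were marked and 10 were accessible, with Sox2 at a fold enrichment of 42.9 and a width of 8186 bp and Pou5f1 at 35.1 and 5926 bp, while Esrrb had no H3K4me3 peak at its gene start. Of 10 markers of feeder fibroblasts, 6 were marked, at fold enrichments of 3.39 to 20.4, and Col3a1, Fap, Lum and Postn had no H3K4me3 peak. Of 9 neuron markers 8 were marked, at 11.8 to 25.4, and of 10 heart muscle markers 2 were, which are Myl7 and Ryr2. Over all coding genes the marked share was 67.7%. The intervals of the stem cell (59.6 to 98.2%), feeder (31.3 to 83.2%) and neuron markers (56.5 to 98.0%) hold this share. That of the heart muscle markers (5.67 to 51.0%) lies below it. The marked counts alone thus do not identify the cell type. Genes of other cell types also carried the mark. The part that feeder cells or a Polycomb-bound state have in the peaks at potassium channel genes was not tested.

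The DNA just before the start is shown for a few marked and unmarked members. The sequences that follow are the 250 bases before the gene start, from mm10, on the strand of the gene, 5′ to 3′, with each CpG in capitals, since CpG content is the sequence feature described further on. The first 3 belong to members with strong peaks whose bases touch no annotated exon, and they are examples rather than a measure of all strong members. They are Kcnh2 (chr5:24351605-24351854, minus strand), which carries the rapid delayed rectifier current of the heart, Kcnq3 (chr15:66286643-66286892, minus strand), a subunit of the M-current of neurons, and Kcnd2 (chr6:21215253-21215502, plus strand), which carries a transient current in dendrites. They hold 41, 27 and 20 CpG.
Kcnh2: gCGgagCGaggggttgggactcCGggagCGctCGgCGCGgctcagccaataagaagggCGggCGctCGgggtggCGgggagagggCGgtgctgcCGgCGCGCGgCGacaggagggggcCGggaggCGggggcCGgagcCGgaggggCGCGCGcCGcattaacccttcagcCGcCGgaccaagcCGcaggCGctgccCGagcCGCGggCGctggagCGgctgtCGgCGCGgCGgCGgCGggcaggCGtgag
Kcnq3: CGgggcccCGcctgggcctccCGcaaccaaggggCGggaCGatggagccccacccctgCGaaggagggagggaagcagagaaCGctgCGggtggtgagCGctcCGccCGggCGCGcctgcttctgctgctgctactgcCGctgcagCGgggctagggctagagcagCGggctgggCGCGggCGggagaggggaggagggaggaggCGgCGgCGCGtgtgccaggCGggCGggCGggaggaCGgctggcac
Kcnd2: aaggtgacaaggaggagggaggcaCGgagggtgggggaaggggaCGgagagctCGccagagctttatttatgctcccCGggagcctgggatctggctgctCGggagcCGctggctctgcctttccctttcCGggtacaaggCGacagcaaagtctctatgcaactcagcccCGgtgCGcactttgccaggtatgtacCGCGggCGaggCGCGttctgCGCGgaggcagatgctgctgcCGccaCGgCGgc
The other sequences belong to the members with neither peak that have the lowest CpG ratio and touch no exon. They are Kcna10 (chr3:107182806-107183055, plus strand), a Shaker-type channel, Kcnj15 (chr16:95257308-95257557, plus strand), an inward rectifier, and Kcnk16 (chr14:20269200-20269449, minus strand), a 2-pore-domain channel of the pancreas. They hold 0, 1 and 2 CpG.
Kcna10: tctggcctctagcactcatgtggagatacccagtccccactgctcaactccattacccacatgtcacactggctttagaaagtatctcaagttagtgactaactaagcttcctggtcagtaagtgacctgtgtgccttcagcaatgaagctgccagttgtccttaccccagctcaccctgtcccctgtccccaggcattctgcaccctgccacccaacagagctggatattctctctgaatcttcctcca
Kcnj15: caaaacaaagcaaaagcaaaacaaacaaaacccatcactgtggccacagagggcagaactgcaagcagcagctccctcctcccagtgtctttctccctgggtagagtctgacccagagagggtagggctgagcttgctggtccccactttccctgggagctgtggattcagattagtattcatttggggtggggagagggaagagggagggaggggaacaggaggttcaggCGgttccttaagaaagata
Kcnk16: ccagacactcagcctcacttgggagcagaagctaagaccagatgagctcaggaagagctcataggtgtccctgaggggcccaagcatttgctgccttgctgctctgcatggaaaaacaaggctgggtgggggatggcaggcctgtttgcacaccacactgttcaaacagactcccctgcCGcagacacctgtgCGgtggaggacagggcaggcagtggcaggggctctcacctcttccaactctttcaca

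Most potassium channel genes were marked in these stem cells, and only 14 of those marked had a peak stronger than the median of all marked coding genes. Of the 91 genes, 70 were marked (76.9%, 95% interval 67.3 to 84.4%), against a background of 67.7% of all coding genes (67.0 to 68.3%). An ATAC-seq peak was found at 79 (86.8%, 78.4 to 92.3%), against 75.9% of all coding genes. The lower bound of the members' H3K4me3 share lies below the share of all coding genes, so that the marked share alone does not set the members apart. The background also holds 1455 genes of olfactory and vomeronasal receptors, and without them, a choice made after seeing the data, it rises to 72.7% for H3K4me3 and 81.0% for ATAC-seq.

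**Figure D1:**
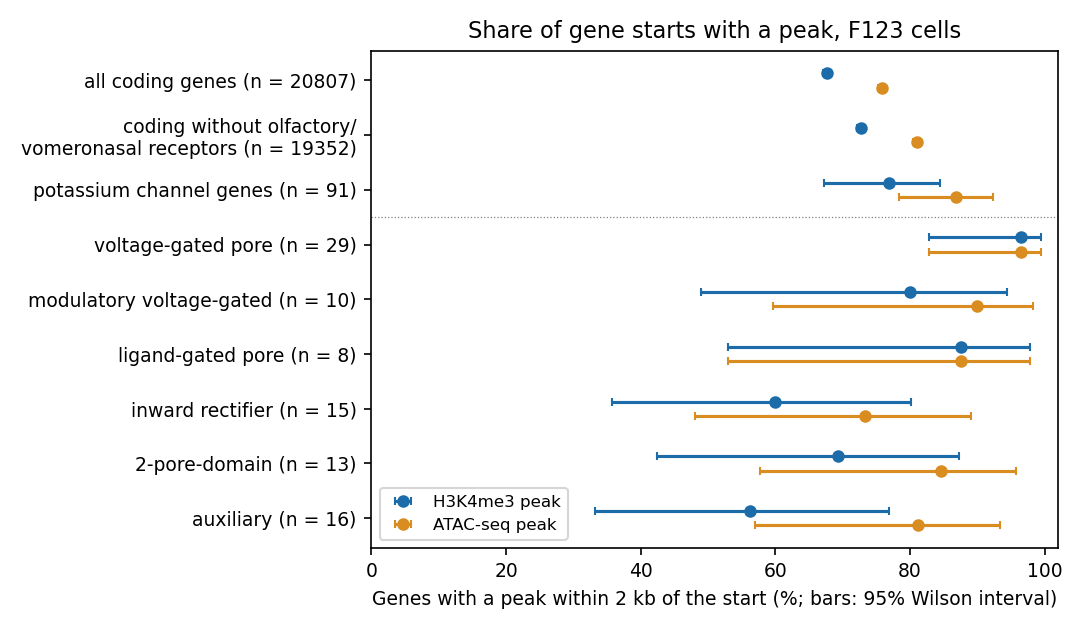
Share of genes (x axis, percent) with an H3K4me3 peak (blue) or an ATAC-seq peak (orange) within 2 kb of the start. Rows are all coding genes, coding genes without olfactory and vomeronasal receptors, the 91 potassium channel genes and their 6 role groups. The row without receptors was added after seeing the data, and bars are 95% Wilson intervals. The voltage-gated pore subunits reach 96.6% for both assays, and the inward rectifiers and auxiliary subunits have the lowest H3K4me3 shares, 60% and 56.25%.

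The marks were nested. All 70 marked members were also accessible (76.9%, against 67.2% of all coding genes with both peaks), and 0 members had H3K4me3 without ATAC-seq, a class that holds 0.505% of all coding genes. Another 9 were accessible only (9.89%, against 8.72%), and 12 had neither peak (13.2%, against 23.6%). The accessible-only genes were Kcnk7 with 3 ATAC-seq peaks of 756 bp in sum, Kcnk18 with 2 of 600 bp, Kcnmb1 with 2 of 326 bp, and Kcne1, Kcnmb3, Kcnj14, Kcnv2, Kcnrg and Kcnj9 with 1 each. These single peaks ranged from 617 bp at Kcne1 and 359 bp at Kcnmb3 down to 135 bp at Kcnj9. The genes with neither were Kcna10, Kcng4, Kcnma1, Kcnj1, Kcnj13, Kcnj15, Kcnj16, Kcnk2, Kcnk16, Kcne2, Kcne4 and Kcnip1.

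The marked members had a lower median strength than all marked coding genes, and a median width that differed from theirs by less than its interval. The median fold enrichment of the 70 was 20.1 (17.6 to 22.0), with the middle 50% of members between 14.6 and 26.7, and the median of all 14079 marked coding genes was 30.9. When the marked coding genes were cut by fold enrichment into 4 classes of equal size, 38 of the 70 fell in the lowest class, 18 in the next, 13 in the class above the median and 1 in the highest. The median −log10 q was 211 at the members and 459 at all marked coding genes. Widths were spread over all 4 classes made in the same way, with 17, 20, 19 and 14 members from the narrowest class to the widest. The median width was 2180.5 bp (1951 to 2604 bp), and that of all marked coding genes, 2265 bp, lies within this interval.

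**Figure D2:**
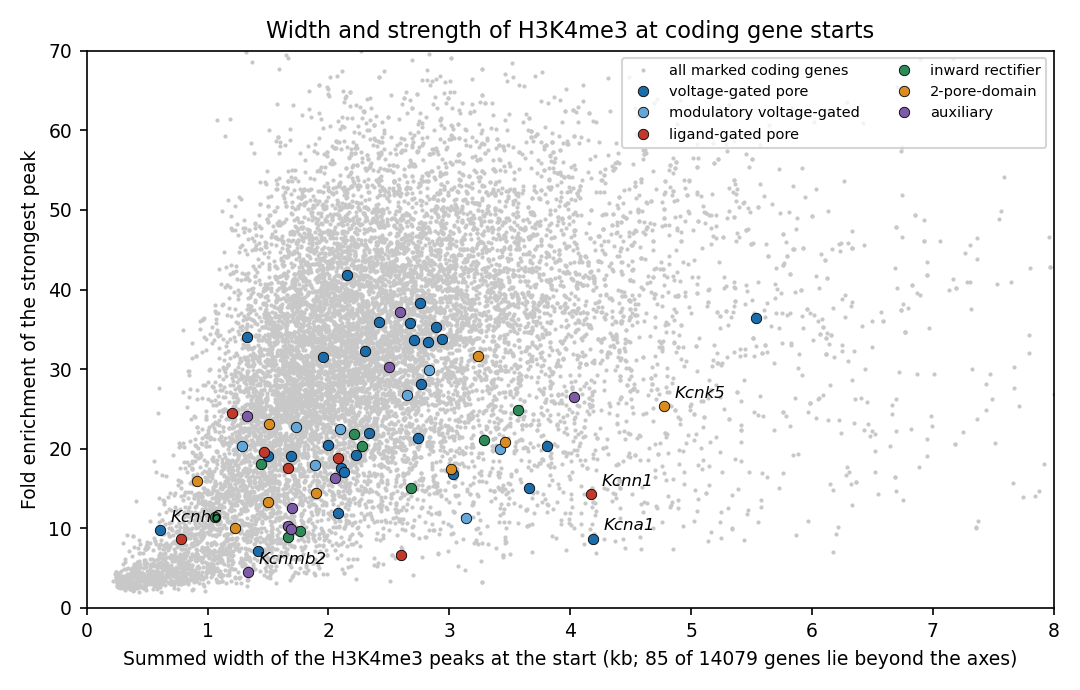
Summed H3K4me3 width at the start (x axis, kb) and fold enrichment of the strongest peak (y axis) for all marked coding genes (grey) and the 70 marked potassium channel genes (coloured by role). Most coloured points lie in the lower part of the grey cloud over a wide range of widths, with Kcnmb2 lowest at 4.52 and Kcnh6 narrowest at 604 bp.

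The summed ATAC-seq peaks at accessible members had a larger median width than those at all accessible coding genes. By role, only the interval of the voltage-gated pore subunits lay above the median of all accessible coding genes. Several ATAC-seq peaks were found at 39 of the 79 accessible members (49.4%), against 37.5% of accessible coding genes. By role this share was 67.9% at the voltage-gated pore subunits (19 of 28) and 63.6% at the 2-pore-domain channels (7 of 11). It was 38.5% at the auxiliary subunits (5 of 13) and 36.4% at the inward rectifiers (4 of 11). At the ligand-gated subunits it was 28.6% (2 of 7), and at the modulatory subunits 22.2% (2 of 9). The median summed ATAC-seq width was 1219 bp (1044 to 1418 bp) at the members and 1001 bp at all accessible coding genes. It was 1619.5 bp (1426 to 1761 bp) at the voltage-gated pore subunits. The medians were 1190 bp (205 to 1752 bp) at the inward rectifiers and 1108 bp (397 to 1691 bp) at the modulatory subunits. Lower medians were seen at the auxiliary subunits, 949 bp (359 to 1300 bp), and the 2-pore-domain channels, 799 bp (600 to 1841 bp). The lowest was that of the ligand-gated subunits, 779 bp (277 to 1418 bp). Apart from that of the voltage-gated pore subunits, all these intervals by role hold 1001 bp. At the 70 marked members, a median of 61.4% of the H3K4me3 width lay inside ATAC-seq peaks, and the highest share was 87.8%, at Kcnc2. The largest number of ATAC-seq peaks, 5, was seen at Kcna7, a Shaker-type subunit, and at Kcng3, a modulatory subunit.

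The voltage-gated pore subunits, which open when the membrane depolarizes and end the action potential, were the most completely marked group. Of 29 genes, 28 were marked (96.6%, 82.8 to 99.4%), with a median fold enrichment of 21.7 (19.03 to 33.7) and a median width of 2378 bp, and Kcna10 alone had neither peak. Of the 14 members whose strength exceeded the median of all marked coding genes, 12 were in this group. The others were Kcnk1 of the 2-pore-domain channels and Kcnmb4 of the auxiliary subunits.

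Within this group single genes differed widely in strength. Among the Kcnq genes, known for slow currents that hold neurons and heart cells near rest, Kcnq3 stood at 35.9 over 2673 bp with a −log10 q of 384, and Kcnq5 at 33.3 over 2826 bp with a −log10 q of 394. Kcnq1, the channel of the slow delayed rectifier of the heart, was weaker at 20.5 over 1996 bp, with its summit 942 bp downstream of the start. Kcnq1 also holds the start of Kcnq1ot1, the noncoding antisense transcript of an imprinted domain, where a separate peak had a fold enrichment of 33.8 and a width of 3831 bp.

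Channels of the Kcnc subfamily let neurons fire fast. Kcnc4 stood at 33.7 over 2942 bp, with a −log10 q of 349, and Kcnc1 at 33.7 over 2706 bp, with a −log10 q of 421. Kcnc2 was lower, at 21.4, over 2738 bp. These genes thus lay close in width and less so in strength.

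Kcnb2, a delayed rectifier, stood at 31.5 over 1951 bp. Kcnd2 reached 35.3 over 2890 bp with a −log10 q of 320, against 16.9 over 3030 bp at Kcnd3. The peak of Kcnd3 also holds the start of the antisense gene Kcnd3os, and the list cannot assign it to either strand. All 8 Kcnh genes, named after the ether-a-go-go channel of flies, were marked, and 2 of them strongly. Kcnh2 stood at 36.0 over 2422 bp with a −log10 q of 509, and Kcnh1, the nearest relative of the fly gene, at 34.02 over 1329 bp with a −log10 q of 304. The other 6 were Kcnh3 at 20.3, Kcnh5 at 19.2, Kcnh7 at 19.1, Kcnh4 at 17.1, Kcnh8 at 15.1 and Kcnh6 at 9.76. Kcnh6 had the narrowest region of all marked members, 604 bp.

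The Kcna genes, the relatives of the fly gene Shaker, were marked at 7 of 8, at a median of 17.5. They lie in clusters. On chromosome 3, Kcna3 stood at 32.3, Kcna2, with its start 64977 bp away, at 22.0, and Kcna10, a further 81910 bp away, had neither peak. On chromosome 6 the neighbours were all marked and all low. Kcna5, a channel of atrial muscle, stood at 7.17 over 1420 bp with a −log10 q of 32.4, Kcna1, a channel of axons, at 8.69 over 4192 bp with a −log10 q of 82.5, and Kcna6 at 11.9. Kcna4 and Kcna7, which lie apart from both clusters, stood at 19.03 and 17.5. Kcna1 thus joined a low strength with a wide region.

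**Figure D3:**
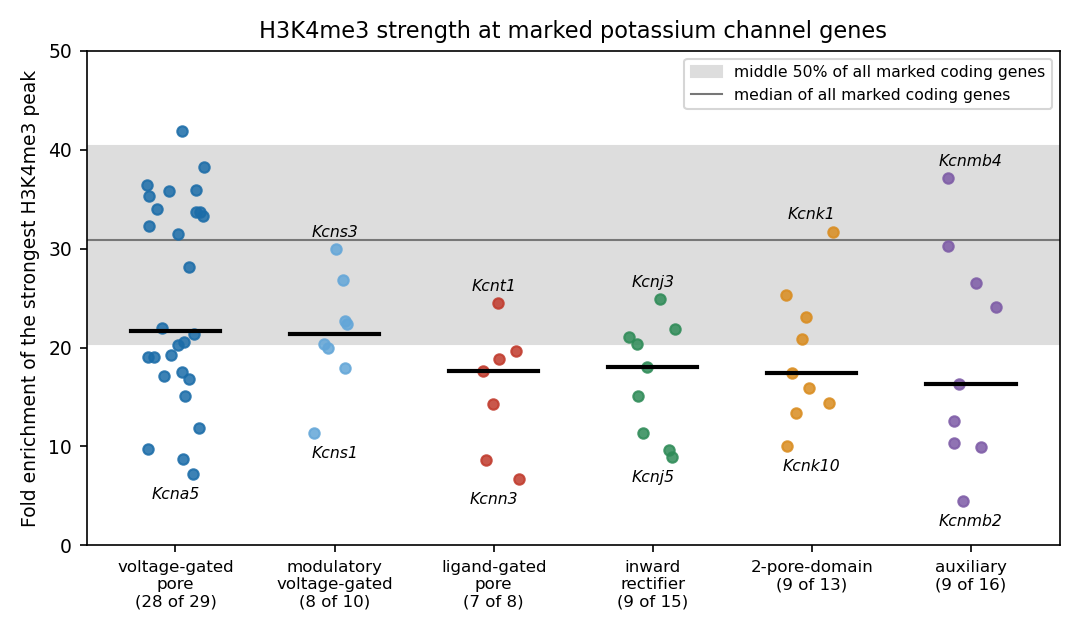
Fold enrichment of the strongest H3K4me3 peak (y axis) at each of the 70 marked potassium channel genes, by role group (x axis, with the number marked of the number in the group). Black bars are group medians, and the grey line and band are the median, 30.9, and the middle 50% of all marked coding genes. All 6 group medians, from 16.4 to 21.7, lie below the line, and 12 of the 14 points above it are voltage-gated pore subunits.

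The modulatory voltage-gated subunits form no channel of their own and change the properties of other voltage-gated subunits with which they assemble. Of 10 genes, 8 were marked (80.0%, 49.0 to 94.3%), at a median of 21.4 and a median width of 2371.5 bp. Kcns3 was the strongest at 29.9 over 2828 bp, and Kcns1 the weakest at 11.3 over 3135 bp in 2 peaks. Between them lay Kcng1 at 26.8, Kcng2 at 22.7, Kcns2 at 22.4, Kcnv1 at 20.3, Kcng3 at 19.96 and Kcnf1 at 17.9. Their range was narrower than that of the voltage-gated pore group as a whole, which holds more marked genes, 28. None exceeded the median of all marked coding genes. Kcnv2, known from a disease of retinal cones, was accessible only, and Kcng4 had neither peak, with the nearest H3K4me3 peak 2108 bp from its start.

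Most of the ligand-gated pore subunits open on intracellular calcium or sodium. Of 8 genes, 7 were marked (87.5%, 52.9 to 97.8%), at a median of 17.6 and a median width of 1668 bp. Kcnt1, a sodium-activated channel, was the strongest at 24.5 over 1204 bp. Kcnt2, its paralog, stood at 17.6 over 1668 bp. The calcium-activated Kcnn genes, of small or intermediate conductance, were all marked but low, with a median of 11.4 over 4 genes. Kcnn2 stood at 19.6 over 1469 bp, Kcnn1 at 14.2 over 4173 bp, and Kcnn4, the intermediate-conductance channel of blood cells, at 8.59 over 780 bp with a −log10 q of 35.7. Kcnn3 was the second weakest of all marked members, at 6.66 over 2604 bp in 2 peaks, with a −log10 q of 48.6.

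Counting any coding transcript start in place of the gene start added 1 marked gene in each of 4 groups, which are Kcnma1 here, Kcng4 of the modulatory subunits, Kcnk2 of the 2-pore-domain channels and Kcnip1 of the auxiliary subunits. Kcnma1, the large-conductance channel gated by calcium and voltage, had neither peak at its gene start, yet 7 of its 11 coding transcript starts were marked. The peak at chr14:24002936-24005430, whose transcript start lies 9632 bp from the gene start, was 35.5-fold enriched over 2495 bp, with a −log10 q of 424, close to the strength of Kcnd2 and Kcnq3 at their own gene starts. With it, the ligand-gated group was marked at 8 of 8 genes. Kcnn2 had, beside the peak at its gene start, one of 30.6 over 3794 bp at a transcript start 291294 bp away. The peak counted for Kcnu1, the channel of sperm, did not cover its start and lay 1843 bp from it. It holds the start of Ash2l, a core subunit of the complexes that methylate lysine 4 of histone H3. When a peak was counted only with its summit in the window, Kcnu1 and Kcnn1 were lost from this group and 5 of 8 remained.

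The inward rectifiers pass potassium more easily into the cell than out of it and set the resting potential. Of 15 genes, 9 were marked (60%, 35.7 to 80.2%) and 11 were accessible (73.3%), with a median of 18.1 and a median width of 2210 bp. The strongest was Kcnj3, at 24.9 over 3570 bp, and the weakest Kcnj5, at 8.89 over 1662 bp, and both encode subunits of the channel that G proteins open in the atrium. Kcnj2, the classical strong rectifier of heart and skeletal muscle, stood at 20.3 over 2275 bp. Kcnj12 and Kcnj4, of the same type, stood close to it at 21.9 and 21.1, while Kcnj10, of glial cells, reached 11.4. Kcnj6, another G-protein-gated subunit, stood at 9.65. The pores of channels closed by ATP were both marked, Kcnj11 of the pancreatic beta cell at 18.1 over 1442 bp and Kcnj8 of vascular muscle at 15.1 over 2684 bp. Their sulfonylurea receptors were marked too, Abcc8 at 17.4 and Abcc9 at 11.4. The unmarked genes were Kcnj1, the channel of the kidney tubule, Kcnj9, Kcnj13, Kcnj14, Kcnj15 and Kcnj16.

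The 2-pore-domain channels carry the leak current of resting cells. Of 13 genes, 9 were marked (69.2%, 42.4 to 87.3%) and 11 were accessible (84.6%), with a median of 17.4 and a median width of 1898 bp. Kcnk1, a weakly rectifying leak channel, was the strongest at 31.7 over 3239 bp. Kcnk5, opened by alkaline pH, stood at 25.3 with a −log10 q of 326, and its region was wide, at 4777 bp. Kcnk3, closed by acid, stood at 14.4 over 1898 bp, and Kcnk10, opened by stretch, was the weakest at 10.1 over 1231 bp. Between Kcnk1 and Kcnk10 also lay Kcnk6 at 23.1, Kcnk12 at 20.8, Kcnk13 at 17.4, Kcnk15 at 15.9 and Kcnk4 at 13.3. Kcnk10 and its relative Kcnk2, which also responds to stretch, both had a peak at another transcript start that exceeded any at the gene start. It reached 27.0 at a start 3183 bp away for Kcnk10, and 19.9 over 2017 bp at a start 58081 bp away for Kcnk2, whose gene start had neither peak.

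The auxiliary subunits and regulators, which bind pore subunits and alter their gating or traffic, had the lowest share of marked genes. Of 16 genes, 9 were marked (56.25%, 33.2 to 76.9%) and 13 were accessible (81.25%), with a median of 16.4 and a median width of 1698 bp. The interval of this share lies below that of the voltage-gated pore subunits and overlaps those of the other groups. The group held peaks at both ends of the members' range. Kcnmb4, the beta subunit of Kcnma1 channels in brain, stood at 37.1 over 2594 bp with a −log10 q of 531, and the antisense gene Kcnmb4os2 starts in the same peak. Kcnmb2, its paralog, had a peak of 4.52 over 1334 bp at chr3:31902455-31903788, with a −log10 q of 12.5. Kcnmb1, the beta subunit of smooth muscle, and Kcnmb3 were accessible only, so that the 4 beta subunits ranged from a strong peak to none.

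Among the other auxiliary genes, the 3 Kcnab genes of the cytoplasmic beta subunits were all marked. Kcnab2 stood at 30.3 over 2502 bp, in a peak that also holds the start of Nphp4, 1165 bp from its own. Kcnab3 stood at 26.5 with 4033 bp in 2 peaks. Its strongest peak did not cover its start and holds those of Cntrob and Trappc1, while the peak over its own start reached 22.0. Kcnip3, a calcium sensor that binds Kcnd channels and DNA, stood at 12.6 over 1698 bp at the gene start and reached 24.6 over 3820 bp at a transcript start 39595 bp away. The other Kcnip genes at their gene starts were Kcnip4, at 24.1 over 1328 bp, and Kcnip2, at 9.93 over 1692 bp. Of the Kcne genes only Kcne3 was marked, by a peak 1375 bp from its start, and Kcne1, the partner of Kcnq1, had a single ATAC-seq peak of 617 bp. Kcnip1 had neither peak at its gene start and a peak of 23.2 over 1257 bp at a transcript start 149567 bp away.

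**Figure D4:**
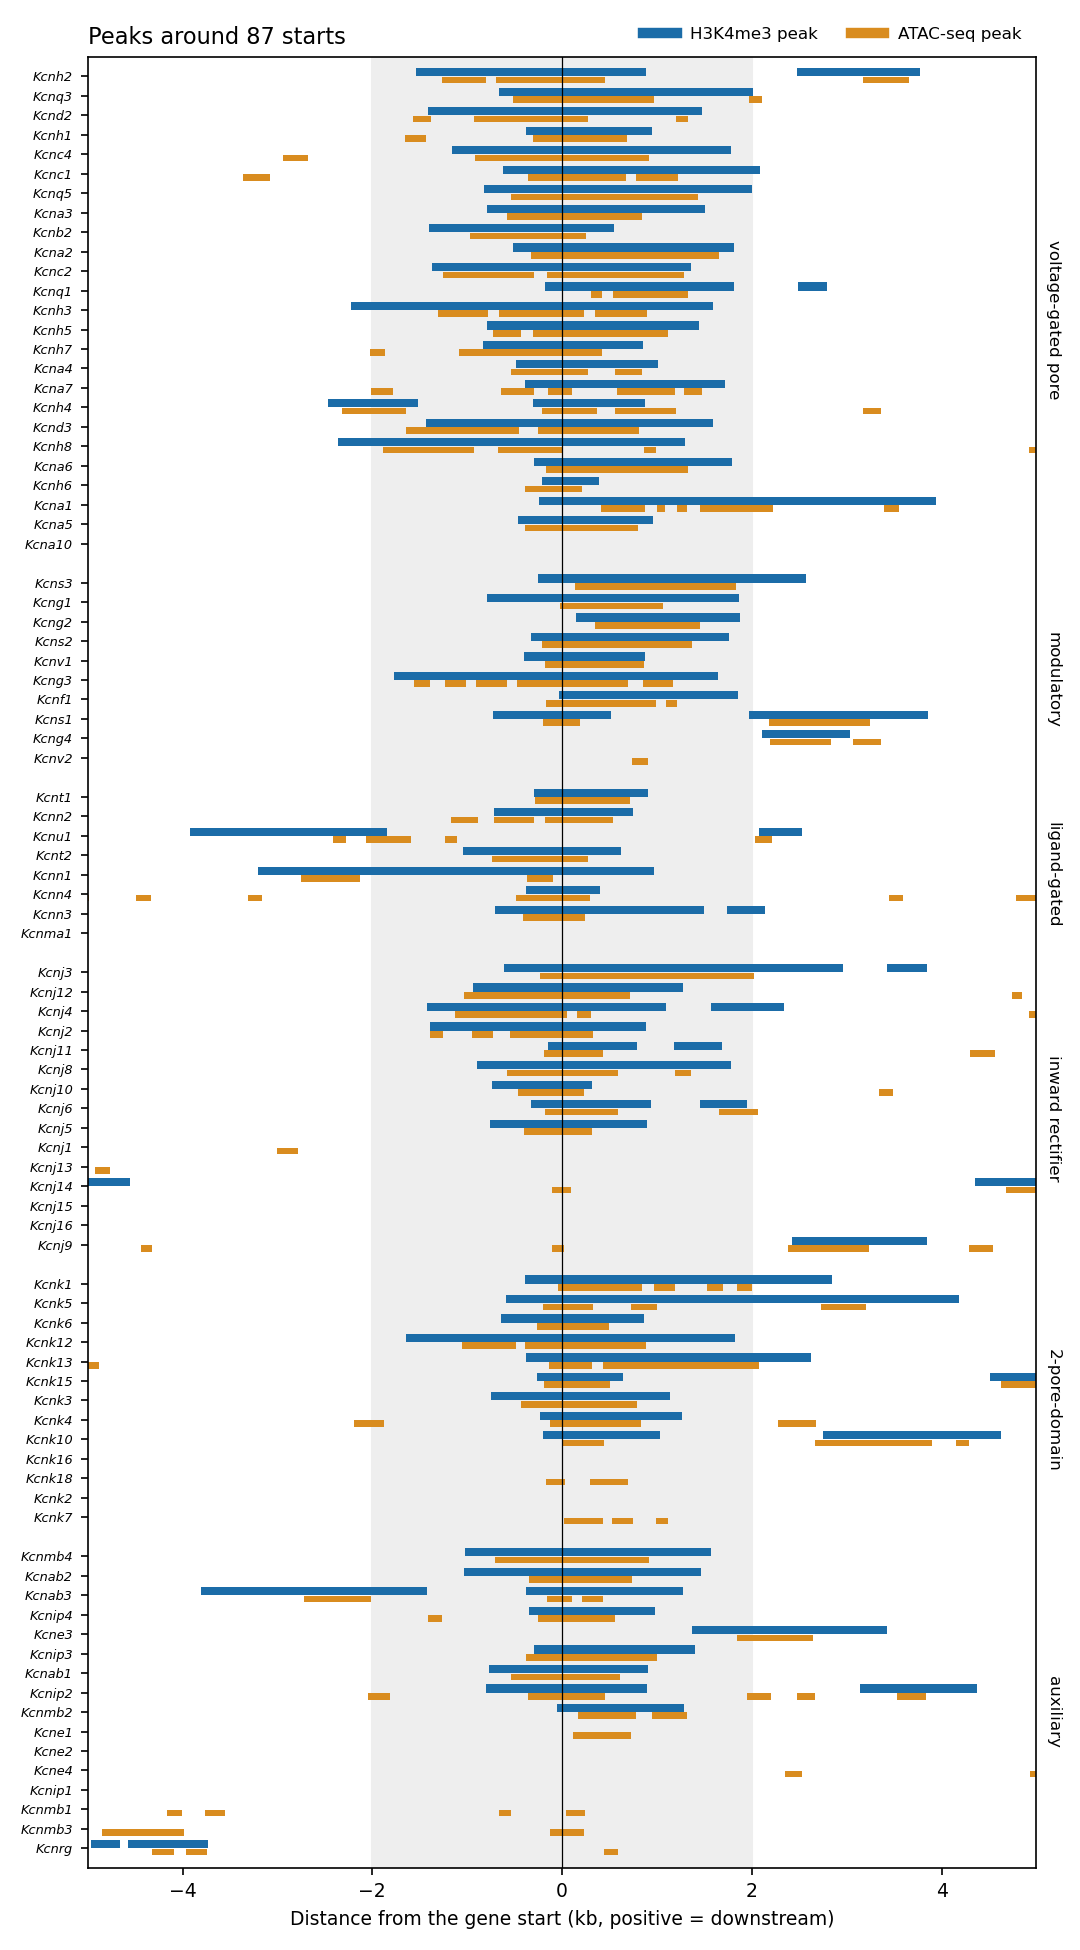
H3K4me3 peaks (blue) and ATAC-seq peaks (orange) around the start of 87 of the potassium channel genes, as distance from the start (x axis, kb, positive downstream), sorted by role and fold enrichment, with the window of 2 kb on either side in grey. Most blue bars cover the start and reach farther downstream than upstream, and the 21 unmarked members stand at the foot of their groups.

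Most peaks lay on the start, with the summit downstream of it. A peak covered the start itself at 67 of the 70 marked members, and the summit of the strongest lay downstream at 53 members (75.7%), upstream at 16 and on the start itself at Kcnab1. The downstream share over all marked coding genes was higher, at 84.3%. The median summit was 167.5 bp downstream, against 216 bp for all marked coding genes. Summits within 500 bp of the start were seen at 48 members (68.6%), against 78.4% of all marked coding genes. The strongest peak ran over a median of 1382.5 bp downstream of the start.

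The window of 2 kb decided few genes. The members just inside it were Kcnu1, with its nearest H3K4me3 peak 1843 bp from the start, and Kcne3, with its nearest at 1375 bp. Just outside it were Kcng4, at 2108 bp, and Kcnj9, at 2420 bp. A window of 1 kb lost Kcne3 and Kcnu1, and a window of 5 kb gained Kcng4, Kcnj14, Kcnj9 and Kcnrg. The remaining unmarked members lay at least 7919 bp from a peak, and Kcnj15 was the farthest, at 259533 bp.

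Neighbouring potassium channel genes were marked alike in some pairs and differently in others. Starts within 200 kb of each other formed 10 pairs of members. In 3 pairs both genes were marked, all of them Kcna pairs, in 5 pairs 1 gene was marked, and in 2 pairs neither was. Kcna1 and Kcna2 each belong to more than 1 of these pairs. Of all members 76.9% were marked. Pairs of other coding genes were not counted, so that whether these numbers are usual is not known. The closest pair of all was Kcnj9 and Kcnj10, 11892 bp apart, in which Kcnj10 stood at 11.4 and Kcnj9 had an ATAC-seq peak only. Kcnj5 stood 28143 bp from the unmarked Kcnj1, Kcnk5 87390 bp from the unmarked Kcnk16, and Kcnj2 98131 bp from the unmarked Kcnj16. In each of these 3 pairs both genes belong to the same subfamily.

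CpG content went with the mark among the members as it did among all coding genes. The CpG ratio is the number of CpG found over the number expected from the C and G content, here in the 250 bases before the start, and 0.6 is a usual limit for CpG islands. All 30 members at or above it were marked (100%, 88.6 to 100%), and so were 98.4% of the 8799 coding genes of this class. Of the 61 members below it, 40 were marked (65.6%, 53.0 to 76.3%), against 45.1% (44.2 to 46.0%) of the 12008 coding genes below it. The interval of the members lies above that of all coding genes in the lower class, as a description and without a test. Olfactory and vomeronasal receptor genes were not left out of this class. Without them the share of all coding genes rose from 67.7% to 72.7%, and the share of the lower class was not computed, so this gap may be smaller. The median CpG ratio was 0.562 at marked and 0.240 at unmarked members, and 0.687 and 0.142 at marked and unmarked coding genes.

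Strength followed the same order, yet stayed lower at the members in both classes. The median fold enrichment of the 30 members at or above a ratio of 0.6 was 24.2, against 34.7 for all marked coding genes of that class. Below it the medians were 18 for the 40 marked members and 22.6 for marked coding genes. By role, 16 of the 29 voltage-gated pore subunits had a ratio of at least 0.6, but 0 of the 8 ligand-gated subunits did, of which 7 were marked. Among these 7, the peak counted for Kcnu1 does not cover its start. Single genes departed from the order. Kcnj6 had 1.05 at a strength of only 9.65, and Kcnf1 was marked with 1 CpG. The peak of Kcnf1 begins only 32 bp upstream of its start, so that most of the bases counted for Kcnf1 lie outside it. Kcne3 had 0 CpG and was marked too, but its peak begins 1375 bp downstream of the gene start. The bases counted for Kcne3 thus lie outside its peak. Among the unmarked members the highest ratio was 0.544, at Kcne2.

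**Figure D5:**
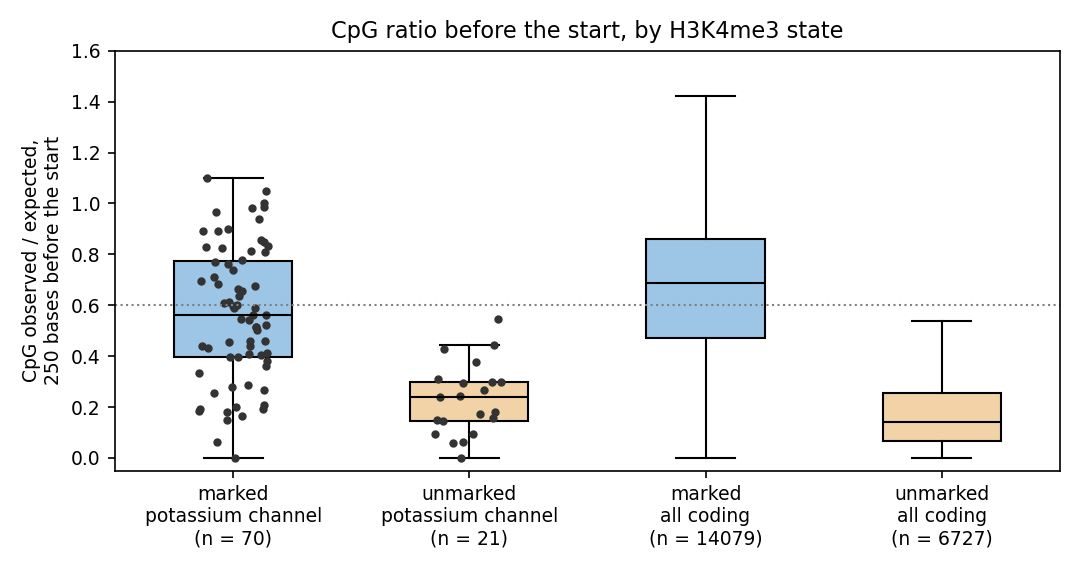
CpG observed over expected in the 250 bases before the start (y axis) for marked and unmarked potassium channel genes (points are single genes) and for marked and unmarked coding genes. Boxes show the median and the middle 50%, whiskers reach the farthest value near the box, coding genes beyond the whiskers are not drawn, and the dotted line is the limit of 0.6, above which all 30 potassium channel genes were marked.

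Short promoter motifs were counted in the same bases on both strands. GGGCGG, the letters of a GC box, was found at 42 of 91 members (46.2%), against 39.6% of all coding genes, with 40 of these among the 70 marked and 2 among the 21 unmarked members. TATAAA was found at 3 members (3.30%), against 11.6% of coding genes, and these were the unmarked Kcnj1, Kcnj9 and Kcnj13. CCAAT was found at 24 members (26.4%), against 35.5%, with 27.1% at marked and 23.8% at unmarked members. For all coding genes the motifs were not counted apart by mark, so that these splits cannot be called particular to potassium channel genes. The motifs can share bases with CpG, which GGGCGG holds by its own letters. A match is a run of letters and not a measured binding site.

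Other ion channel families were marked in part as well. Of the genes with a symbol of voltage-gated sodium channels (Scn), 8 of 14 were marked, at a median fold enrichment of 22.8. Of those with a symbol of voltage-gated calcium channels (Cacn), 20 of 25 were, at 23.7. Both lists go by symbol alone and pool pore genes with auxiliary ones. The unmarked Scn genes were all pore genes. All 4 Hcn genes, the pacemaker channels that are relatives of the Kcnh family, were marked at a median of 31.4, as were 17 of 21 TRP channel genes at 14.4 and 5 of 8 Clcn genes at 34.3. The intervals of these shares, such as 32.6 to 78.6% for Scn and 60.9 to 91.1% for Cacn, overlap that of the potassium channel genes. Protein partners of potassium channels were marked at 13 of 14 genes, with Lrrc52 the exception. Among them Vamp2, at 57.7, and Calm2, the calmodulin that acts as the calcium sensor of Kcnn channels, at 56.8, exceeded every potassium channel gene.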

How the data were processed

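H3K4me3 ChIP-seq and ATAC-seq of F123 cells were described, with 2 replicates in each of the 2 assays. For H3K4me3 the authors ran the default settings of the ENCODE pipeline for histone ChIP-seq. Its aligner, peak threshold and use of the input are not given in the sources used here. Its deposited columns give peak positions and summits, the fold enrichment as a ratio to local background, −log10 of p (not used) and of q, and a display score (not used). For ATAC-seq the authors aligned reads with Bowtie 1.1.2, handled them with SAMtools and bedtools 2.27.1, called peaks with MACS2 2.1.1.20160309, moved read ends by 4 bp for the transposase and kept pooled peaks found in both replicates. The deposited ATAC-seq list has positions alone. Neither deposited list has read counts, depth per sample is therefore unknown, and intervals cover counting of genes only.

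Peak positions were made to count from 1. The genes and starts came from GENCODE M21, which annotates mm10, the build named by the labels, and all peaks lay within its chromosome lengths. The 5′ end of the gene record was the start. Peaks were counted with Python 3.11.15, numpy 2.4.6, pandas 2.3.3 and scipy 1.17.1, and figures drawn with matplotlib 3.10.9. The counting was tested on simulated data and gave the same counts as bedtools 2.31.1. Promoter bases were read from the mm10 genome of RefSeq.

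No test was run, since each assay has 1 list. Values in full were given for the 10 members of highest and the 5 of lowest fold enrichment, the 5 widest, the extremes of each role group, the 5 accessible-only members with the most ATAC-seq peaks and a list of textbook members, and other genes were named where a class, a pair or a limit called for it. Members, lists and alternatives were chosen with earlier results of these data known. The alternatives were windows of 1 and 5 kb, any coding transcript start, the summit (ATAC-seq: midpoint) in the window, a −log10 q limit of 5 for H3K4me3 (31049 peaks), the widest 50% of ATAC-seq peaks (89610 of at least 261 bp), the strongest peak alone for width, and leaving out 4 members near another coding start. Some members of the family are counted in totals but not described singly, and a further one was left out.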

Additional observations from a re-analysis of the deposited data

How the results depend on the processing

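Of the alternatives tried for the main results, 37 values moved by less than their interval and 12 moved by more, of which 11 concern all coding genes, whose intervals are narrow. The share of all coding genes with an H3K4me3 peak was 66.35% with a window of 1 kb, 70.6% with 5 kb, 70.2% at any coding transcript start, 66.36% with the summit in the window and 72.7% without olfactory and vomeronasal receptor genes (a setting added once the data were seen). The share with an ATAC-seq peak was 72.2%, 82.8%, 78.2% and, with the midpoint in the window, 75.2% under the same settings, 71.2% with the widest 50% of ATAC-seq peaks and 81.0% without the receptor genes. The share of accessible potassium channel genes rose to 92.3% (84 of 91) at any coding transcript start. Their marked share ranged from 73.6% to 81.3%, their median fold enrichment from 20.1 to 20.4 and their median width from 2129.5 to 2467.5 bp, and 1 role group moved, the ligand-gated subunits, to 100% at any coding transcript start.

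No paired analysis was possible because the replicates of an assay share 1 peak list, and for the same reason no run without a replicate was made. Depth is unknown, and the absence of a peak does not show the absence of the mark. Overlapping and antisense genes that start in the same peak cannot be told apart.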
